A study of Homo sapiens with 20 samples.

Results

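The response to the progestin R5020 was followed for 6 h in T47D cells depleted of FOXA1. The experiment holds 4 of the 20 samples of the series, taken by their labels alone: 2 RNA-seq libraries of cells given an siRNA against FOXA1 (si-FOXA1) and 10 nM R5020 for 6 h, and 2 libraries of si-FOXA1 cells at 0 h, before hormone. T47D is a long-established line from a human breast cancer of luminal type, and it carries the progesterone and oestrogen receptors. The si-FOXA1 and si-control groups were all kept for 48 h in medium with charcoal-stripped serum and no phenol red, and then overnight without serum, before R5020 was added. Control-siRNA cells (si-control, 2 libraries at 6 h and 2 at 0 h) were used to test whether a response differed from that of the depleted cells. The series also holds siRNAs against BRG1 and CBX3, cells without siRNA and BRG1 ChIP-seq. Its title concerns genes that the hormone represses. The labels call the 2 libraries of a group replicates but name no separate cultures, and p-values here therefore cover the spread between libraries alone, which may be technical. No siRNA sequence was used here, and loss of FOXA1 and other effects of the siRNA cannot be told apart.

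The progesterone receptor is a hormone-activated transcription factor. After binding a progestin it sheds its HSP90 chaperones, binds DNA at hormone response elements shared with the glucocorticoid receptor, and recruits co-activators or co-repressors. FOXA1 is a forkhead pioneer factor that binds closed chromatin and opens sites for the oestrogen, androgen and progesterone receptors, and it is a defining factor of luminal breast epithelium. In breast cancer cells progestins induce metabolic, ion transport and cell cycle entry genes, and they lower the transcripts of the progesterone and oestrogen receptors.

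The 16 siRNA libraries held 50017255 to 74374857 counted fragments, and the 4 si-FOXA1 libraries 50558030 to 62185839. Levels are given as CPM (fragments relative to library size, with library sizes scaled by TMM, the trimmed mean of M-values), and changes as log2 fold changes of 6 h over 0 h with their standard errors (SE) from an edgeR quasi-likelihood fit, with 2 libraries per group. The 6 h si-FOXA1 libraries correlated at r = 0.9938 on the log-CPM scale and the 0 h libraries at r = 0.9987, across genes, so the 6 h libraries stood further apart. Count files of si-FOXA1 were made with 1 counting thread and those of si-control with 8, so a batch of the counting run and the siRNA cannot be told apart wherever the 2 siRNAs are compared. FOXA1 (ENSG00000129514.4, hg19 chromosome 14, 38059189 to 38069245, minus strand), the siRNA target, stood at 45.8 and 44.4 CPM at 6 h and at 61.4 and 62.8 CPM at 0 h in si-FOXA1 cells, against 199.5 and 166 CPM at 6 h and 389 and 408 CPM at 0 h in si-control cells. Every si-FOXA1 library lay below every si-control library. The remaining FOXA1 transcript fell by 0.46 (SE 0.08; edgeR adjusted p = 0.000158) at 6 h of hormone. Its fall was smaller than in si-control cells (difference 0.66, SE 0.11; edgeR adjusted p = 0.000259).

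Many genes differed between 6 h of R5020 and 0 h in si-FOXA1 cells. The 0 h cells are the reference, and with no 6 h vehicle group here the hormone and 6 further hours without serum cannot be told apart. Of 18806 genes tested, 3600 (19.1%) rose and 3695 (19.6%) fell at an adjusted p below 0.05, the threshold used throughout. Rises reached further than falls: 1095 genes rose and 664 fell by at least 2-fold, and 214 rose and 22 fell by at least 8-fold. Where the mean log-CPM in these libraries was 3 or more (10067 genes), 350 rose and 132 fell by at least 2-fold. At that level 25 rose and 1 fell by at least 8-fold, so most changes of that size were in genes at low levels. The median log2 fold change was -0.041 over all genes tested, 0.65 over the genes that rose and -0.49 over those that fell. Without 0 h replicate 2 the genes that fell numbered 2441.

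**Figure D1:**
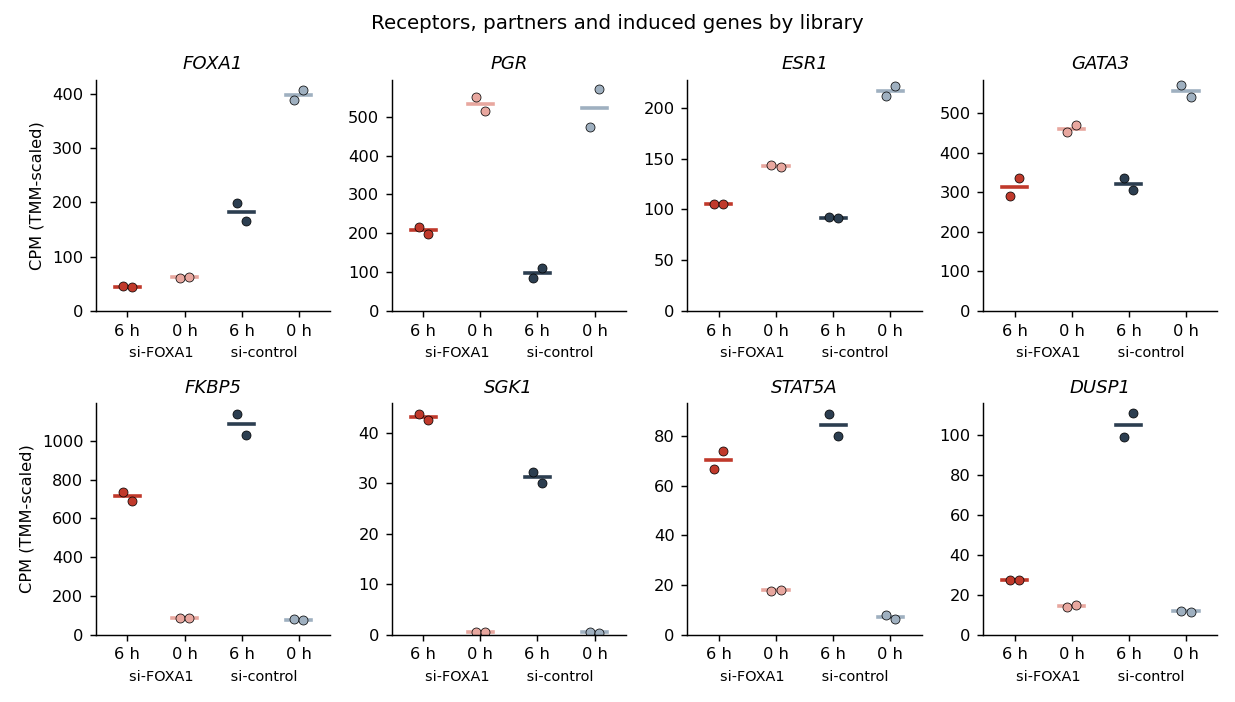
CPM (TMM-scaled, linear axis from 0) of 8 genes in si-FOXA1 cells at 6 h and 0 h and in si-control cells at 6 h and 0 h. Points are libraries and bars are group means (n = 2). FOXA1 stays below 63 CPM in every si-FOXA1 library, and PGR, ESR1 and GATA3 are lower and FKBP5, SGK1, STAT5A and DUSP1 higher at 6 h than at 0 h in these cells.

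The receptor genes and their luminal partners fell in the depleted cells. PGR (ENSG00000082175.10, chromosome 11, 100900355 to 101001255), which encodes the progesterone receptor, stood at 217 and 198 CPM at 6 h and at 551 and 516 CPM at 0 h. It fell 2.57-fold (log2 -1.36, SE 0.14; edgeR adjusted p = 5.89e-07). ESR1, the oestrogen receptor gene, was at 106 and 105 CPM at 6 h against 144 and 141 CPM at 0 h, a fall by 0.44 (SE 0.06). GATA3, a luminal zinc finger factor, was at 292 and 337 CPM at 6 h against 453 and 470 CPM at 0 h and fell by 0.55 (SE 0.08). In each of these genes the 6 h libraries lay below the 0 h libraries, which 39.3% of all genes tested also did, while 32.7% lay above. The falls of PGR and ESR1 were smaller than in si-control cells, by 1.06 (SE 0.19; edgeR adjusted p = 0.000629) and 0.80 (SE 0.09; edgeR adjusted p = 3.67e-06), and the difference for GATA3, 0.24 (SE 0.11), did not pass (edgeR adjusted p = 0.123).

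Of 22 steroid receptor and co-regulator genes tested, 4 rose and 8 fell, 5 without 6 h replicate 1, against 19.1% and 19.6% of all genes tested, with a list median of -0.07 beside -0.04 over all genes. CITED2, a CBP and p300 binding co-factor, was at 86.7 and 93.0 CPM at 6 h and at 231.5 and 246 CPM at 0 h, a fall by 1.41 (SE 0.09). Its response was 1.80 lower (SE 0.13) than in si-control cells, where it stood at 214 and 189 CPM at 6 h and 141 and 166 CPM at 0 h. CITED1, of the same family, rose by 2.47 (SE 0.25) but stayed at 1.07 and 1.08 CPM at 6 h, against 0.245 and 0.137 CPM at 0 h. NCOA3, a p160 co-activator, fell by 0.49. Among 16 chaperones of receptor complexes 6 rose and 2 fell, 1 without 0 h replicate 1, 0 h replicate 2 or 6 h replicate 2 and in 4 fits with another scaling, filter, set of libraries or block. The HSP70 partner gene DNAJB1 rose by 1.13 (SE 0.08), the constitutive HSP70 gene HSPA8 by 0.69 and the cyclophilin gene PPID by 0.47. Of the 19 forkhead genes tested 6 rose and 6 fell. FOXO1, a forkhead factor restrained by AKT signalling, rose by 1.46 (SE 0.08) and FOXN3 by 1.01, FOXO4 rose by 0.90 and FOXO6 fell by 1.16. Without 0 h replicate 2, 3 forkhead genes rose.

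Genes that progestins and glucocorticoids are known to induce rose in most cases without normal FOXA1 levels. Of 30 such genes, 22 rose and 2 fell, against 19.1% and 19.6% of all genes tested. Their median was 0.96 beside -0.04 over all genes. FKBP5 (ENSG00000096060.10, chromosome 6, 35541362 to 35696360), a co-chaperone of steroid receptors, stood at 737 and 692 CPM at 6 h and at 86.3 and 85.5 CPM at 0 h. It rose 8.32-fold (log2 3.06, SE 0.07; edgeR adjusted p = 1.87e-14), and the 6 h libraries lay far above those at 0 h. SGK1 (ENSG00000118515.7, chromosome 6, 134490384 to 134639250), a kinase that promotes sodium uptake, was at 43.7 and 42.5 CPM at 6 h against 0.548 and 0.609 CPM at 0 h, a rise of 74.4-fold (log2 6.22, SE 0.16). STAT5A, a prolactin and cytokine signal transducer, was at 66.8 and 74.1 CPM at 6 h against 17.7 and 17.9 CPM at 0 h, a rise of 3.96-fold (log2 1.98, SE 0.09).

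The glucocorticoid-induced leucine zipper gene TSC22D3 was at 81.3 and 84.2 CPM at 6 h against 22.1 and 24.1 CPM at 0 h and rose by 1.84 (SE 0.07). KLF9, a Krüppel-like repressor, was at 20.6 and 19.2 CPM at 6 h against 10.9 and 11.3 CPM at 0 h and rose by 0.84 (SE 0.09). DUSP1, a phosphatase that inactivates MAP kinases, was at 27.3 and 27.5 CPM at 6 h against 14.1 and 14.6 CPM at 0 h and rose by 0.93 (SE 0.08). All 3 rises stood clear of the spread between libraries. The zinc finger gene ZBTB16 had 193 and 224 fragments at 6 h and 2 and 1 at 0 h, a ratio of 162 per counted fragment with a 95% exact interval of 54.9 to 786, which covers counting error only. The clock gene PER1 did not pass, at 18.2 and 21.4 CPM at 6 h and 21.0 and 20.8 CPM at 0 h (log2 -0.08, SE 0.12; edgeR adjusted p = 0.649). Of the other members, TIPARP rose by 1.71 (SE 0.06) and KLF15 by 3.21 (SE 0.12), while ANGPTL4, a secreted lipase inhibitor, fell by 1.91 (SE 0.13).

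The response differed from that in si-control cells for 20 of the 30 genes, with 16 responses lower and 4 higher. Over all genes tested 15.7% were lower and 13.0% higher. Not all 20 genes were induced in si-FOXA1 cells. Among the lower responses, ANGPTL4 fell and PER1 and SLC7A5 were not called. EHF and CRISPLD2, among the higher, were not called in si-FOXA1 cells and fell in si-control cells. The rise was smaller for FKBP5 (difference -0.76, SE 0.10; edgeR adjusted p = 2.11e-05), STAT5A (-1.58, SE 0.14) and DUSP1 (-2.23, SE 0.12), and the PER1 response was lower by 1.82 (SE 0.17). DUSP1 reached 99.1 and 111 CPM at 6 h in si-control cells. STAT5A stood at 88.9 and 79.8 CPM at 6 h and 7.97 and 6.22 CPM at 0 h in si-control cells. PER1 stood there at 30.3 CPM in each 6 h library and at 10.02 and 8.08 CPM at 0 h. The 0 h levels of STAT5A and PER1 were thus higher in si-FOXA1 than in si-control cells. TSC22D3 rose more in si-FOXA1 cells (difference 0.53, SE 0.10; edgeR adjusted p = 0.000806), from a 0 h level below that of si-control cells, which stood at 67.0 and 63.2 CPM. For SGK1 the difference was 0.25 (SE 0.28) and for KLF9 -0.34 (SE 0.13), neither past the threshold (edgeR adjusted p = 0.546 and 0.0626).

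Promoters of 5 risen genes are shown to set what lies before their starts beside these responses. They are the 250 bases before a transcription start in RefSeq, on GRCh38.p14, 5′ to 3′ on the strand of the gene. Capitals mark TGTTCT, the hexamer of steroid receptor elements, or TGTTTAC, a forkhead core, on either strand. The hexamer is also the right arm of the full palindrome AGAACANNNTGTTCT.
FKBP5, chr6:35728584-35728833, minus strand: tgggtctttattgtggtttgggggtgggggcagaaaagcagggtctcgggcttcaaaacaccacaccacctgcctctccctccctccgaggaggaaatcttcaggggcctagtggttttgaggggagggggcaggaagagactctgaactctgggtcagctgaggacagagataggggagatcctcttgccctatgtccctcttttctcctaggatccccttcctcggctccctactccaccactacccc
STAT5A, chr17:42287189-42287438, plus strand: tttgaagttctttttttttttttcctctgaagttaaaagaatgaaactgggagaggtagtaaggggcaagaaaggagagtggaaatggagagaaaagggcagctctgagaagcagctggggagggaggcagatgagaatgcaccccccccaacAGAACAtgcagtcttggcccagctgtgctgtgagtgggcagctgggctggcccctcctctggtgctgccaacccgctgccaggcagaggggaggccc
TSC22D3, chrX:107717063-107717312, minus strand: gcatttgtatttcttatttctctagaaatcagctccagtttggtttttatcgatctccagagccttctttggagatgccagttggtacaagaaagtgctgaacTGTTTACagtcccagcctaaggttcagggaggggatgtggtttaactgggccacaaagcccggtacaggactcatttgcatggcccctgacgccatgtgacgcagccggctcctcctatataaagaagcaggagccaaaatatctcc
ATP8B3, chr19:1812277-1812526, minus strand: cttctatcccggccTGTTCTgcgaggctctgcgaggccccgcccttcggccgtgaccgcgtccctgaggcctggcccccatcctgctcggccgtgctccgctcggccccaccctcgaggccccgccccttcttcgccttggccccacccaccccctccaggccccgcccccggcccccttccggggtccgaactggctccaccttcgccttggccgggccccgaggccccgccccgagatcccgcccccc
DNAJB4, chr1:78004689-78004938, plus strand: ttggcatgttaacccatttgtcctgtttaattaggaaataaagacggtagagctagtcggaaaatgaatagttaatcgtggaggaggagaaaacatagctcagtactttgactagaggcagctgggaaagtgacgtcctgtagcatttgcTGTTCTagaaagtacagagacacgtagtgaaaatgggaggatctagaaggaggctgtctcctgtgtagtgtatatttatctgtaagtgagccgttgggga
In the promoters shown, TGTTCT was found for STAT5A, ATP8B3 and DNAJB4, beginning at bases -97, -236 and -100 before the start. TGTTTAC was found in the one shown for TSC22D3, at -147. These promoters were picked: number 3 of 4 listed for TSC22D3, 2 of 2 for DNAJB4, 1 of 3 for STAT5A and 1 of 2 for FKBP5. The other listed promoters of TSC22D3 and DNAJB4 held neither motif, and STAT5A promoter 2 held TGTTCT while promoter 3 held neither. FKBP5 held neither in this window. RefSeq promoters were scanned for 50 of the 61 genes named by the fixed list, by size of response or by difference. The rest of the 61, and genes named only from the other lists, were not scanned. Of the 95 promoters scanned none held the full palindrome, which 1 of all 35116 promoters held. Of these 95 promoters 9 (9.47%) held TGTTCT and 3 (3.16%) held TGTTTAC, against 12.4% and 2.98% of all 35116 promoters. These shares were near the background, a match is not a bound site, and which start the cells used was not measured.

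The largest rises joined ion channel, cytoskeletal, keratin and transcription factor genes. The 15 largest, among genes whose mean log-CPM reached 3, spanned log2 3.29 to 4.94. KCNH1 (ENSG00000143473.7, chromosome 1, 210856555 to 211307457), a voltage-gated potassium channel gene, was at 45.3 and 50.4 CPM at 6 h against 1.39 and 1.74 CPM at 0 h. It rose 30.7-fold (log2 4.94, SE 0.16; edgeR adjusted p = 4.03e-13). KRT16, a keratin of activated keratinocytes, was at 54.95 and 58.7 CPM at 6 h against 2.94 and 2.41 CPM at 0 h and rose 21.2-fold (log2 4.41, SE 0.13). Keratin genes of this class have near-identical copies in the genome, so the KRT16 count is uncertain. TFCP2L1, a grainyhead-related transcription factor, was at 40.6 and 43.1 CPM at 6 h against 2.05 and 1.93 CPM at 0 h and rose by 4.39 (SE 0.13).

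The phospholipid flippase gene ATP8B3 was at 70.1 and 81.8 CPM at 6 h against 3.998 and 3.988 CPM at 0 h and rose by 4.25 (SE 0.11). ARHGAP26, a GTPase-activating protein gene, rose by 4.01 (SE 0.13), from 0 h levels of 4.24 and 4.26 CPM. NET1, a guanine nucleotide exchange factor, was at 441.5 and 397 CPM at 6 h against 42.05 and 40.01 CPM at 0 h and rose by 3.35 (SE 0.08). PLCE1, a RAS-regulated phospholipase C, was at 81.5 and 76.7 CPM at 6 h against 7.72 and 8.42 CPM at 0 h and rose by 3.29 (SE 0.13). GPSM2, which orients the mitotic spindle, was at 247 and 225 CPM at 6 h against 18.98 and 17.87 CPM at 0 h and rose by 3.68 (SE 0.08). The actin-binding ABLIM3 rose by 3.50, the junctional LMO7 by 3.35, the HSP40 gene DNAJB4 by 3.57, and ANKRD35, TMEM63C and ABTB3 by 4.31, 3.88 and 3.48. All 15 also rose in si-control cells, as did 3665 of all 18806 genes tested. The response of 10 was higher in si-FOXA1 cells, of none lower, and for 5 the difference did not pass, but the genes were chosen by their rise in si-FOXA1 cells and these counts are a description.

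**Figure D2:**
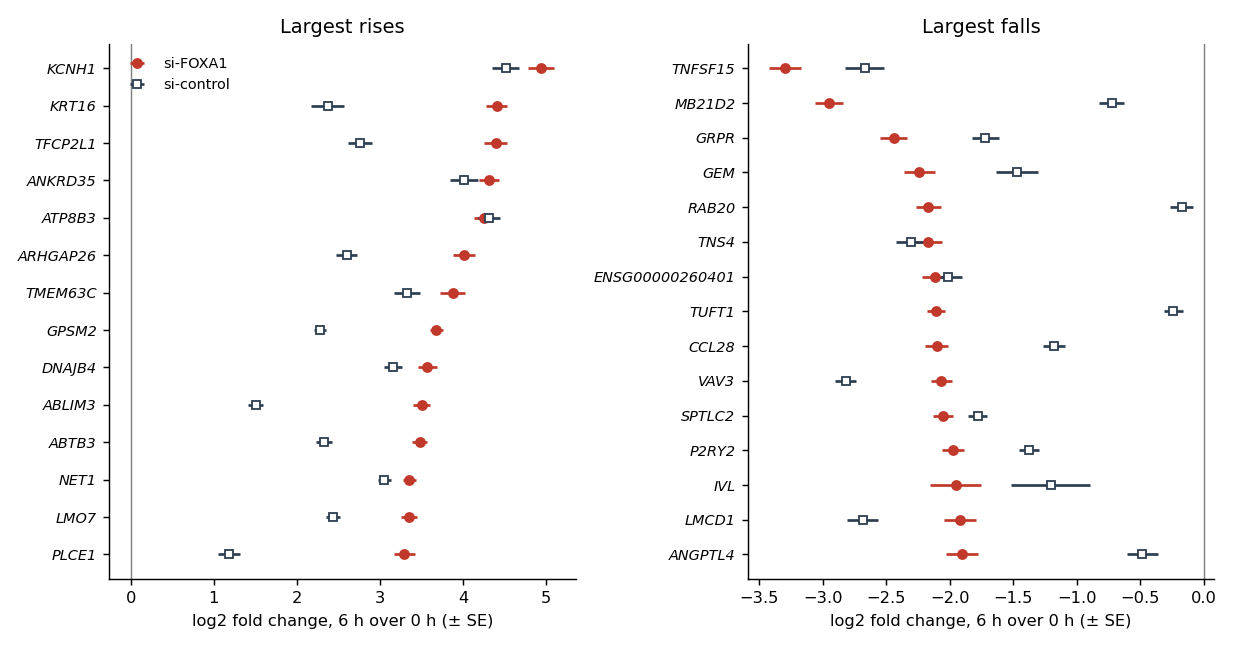
Log2 fold changes of 6 h over 0 h (points, with SE) for 14 of the 15 largest rises and the 15 largest falls of the si-FOXA1 response, with the si-control response of the same genes beside them. Rises reach 4.94 for KCNH1 and falls -3.30 for TNFSF15; in si-control cells TUFT1 lies at -0.24 and RAB20 at -0.18.

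The 15 largest falls among genes whose mean log-CPM reached 3 spanned log2 -3.30 to -1.91, and deeper falls of genes below that level, such as CCN2, are given with their lists. TNFSF15 (ENSG00000181634.7, chromosome 9, 117546915 to 117568406), a cytokine of the TNF family, was at 3.24 and 2.91 CPM at 6 h against 31.6 and 29.0 CPM at 0 h and fell 9.85-fold (log2 -3.30, SE 0.12; edgeR adjusted p = 2.57e-12). MB21D2, a gene of the cGAS-like family, was at 9.46 and 8.31 CPM at 6 h against 68.0 and 69.3 CPM at 0 h, a fall by 2.95 (SE 0.11). GRPR, the bombesin-like peptide receptor gene, was at 3.07 and 3.79 CPM at 6 h against 19.1 and 18.3 CPM at 0 h and fell by 2.44 (SE 0.11). The 6 h libraries lay well below those at 0 h in each.

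RAB20, a GTPase of endosomes, was at 10.02 and 10.45 CPM at 6 h against 44.0 and 48.2 CPM at 0 h, a fall by 2.17 (SE 0.10). TUFT1 was at 44.6 and 42.4 CPM at 6 h against 189 and 186 CPM at 0 h, a fall by 2.11 (SE 0.07). The mucosal chemokine gene CCL28 was at 61.6 and 58.1 CPM at 6 h against 254 and 260.3 CPM at 0 h and fell by 2.10 (SE 0.09). SPTLC2, a subunit of the enzyme that opens sphingolipid synthesis, was at 174 and 157 CPM at 6 h against 677 and 694 CPM at 0 h and fell by 2.05 (SE 0.08). VAV3, an exchange factor of the same broad class as NET1, fell by 2.07, the nucleotide receptor gene P2RY2 by 1.98, the keratinocyte envelope gene IVL by 1.95, and LMCD1, GEM, TNS4 and ENSG00000260401 by 1.92, 2.24, 2.17 and 2.12. Of the 15 genes 14 also fell in si-control cells, as did 3405 of all 18806 genes tested. The response was lower in si-FOXA1 cells for 9 and higher for 2, VAV3 and LMCD1, which these genes' choice by their fall in si-FOXA1 cells again makes a description.

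DNA replication genes rose together. Of 27 G1/S and replication genes, 24 rose and 0 fell, against 19.1% and 19.6% of all genes tested. Their median was 0.46 beside -0.04 over all genes. The count of rises lay between 22 and 25 over the alternatives tried. The cyclin gene CCNE2, which drives entry into S phase with CDK2, was at 71.2 and 62.8 CPM at 6 h against 27.3 and 25.9 CPM at 0 h and rose by 1.33 (SE 0.10; edgeR adjusted p = 1.7e-08). E2F1, the factor that switches on replication genes, was at 43.0 and 47.6 CPM at 6 h against 22.6 and 23.5 CPM at 0 h and rose by 0.98 (SE 0.08). CDC6, which loads the MCM helicase, rose by 0.81 (SE 0.08). GINS2, a helicase subunit, was at 80.4 and 78.6 CPM at 6 h against 45.9 CPM in each 0 h library and rose by 0.79 (SE 0.07), 1.33 less than in si-control cells (SE 0.09; edgeR adjusted p = 3.05e-08). CCND1, the G1 cyclin D1 gene, was at 474 and 465 CPM at 6 h against 130 and 128 CPM at 0 h and rose by 1.86 (SE 0.08). Among 17 G1 cyclins, their kinases and inhibitors 6 rose and 2 fell, 1 without 0 h replicate 2, with CDK2 up by 0.54 and the inhibitor gene CDKN1A down by 0.64 (SE 0.08).

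Of 28 G2/M genes 12 rose and 0 fell, against 19.1% and 19.6% of all genes tested, with a median of 0.29, but 5 rose without 0 h replicate 2 and 5 without 6 h replicate 1. BUB1B, a kinase of the spindle checkpoint, was at 46.9 and 44.4 CPM at 6 h against 24.8 and 21.8 CPM at 0 h and rose by 0.97 (SE 0.10). The cytokinesis gene PRC1 rose by 0.47 (SE 0.07), the spindle gene NUSAP1 by 0.38 and the survivin gene BIRC5 by 0.43. In si-control cells 2 of the 28 rose and 14 fell, where 3665 and 3405 of all 18806 genes tested did. The response was higher in si-FOXA1 cells for 15 of the 28 and lower for 0, against 13.0% and 15.7% of all genes tested. For BUB1B, at 26.2 and 29.9 CPM at 6 h and 29.7 and 27.2 CPM at 0 h in si-control cells, the difference was 0.99 (SE 0.14; edgeR adjusted p = 6.75e-05).

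Genes of cytokine and growth factor signalling moved in both directions, where 19.1% of all genes tested rose and 19.6% fell. Of 16 STAT5 and prolactin pathway genes 7 rose and 3 fell. Besides STAT5A and CCND1, BCL6, a repressor that competes with STAT5, was at 266 and 285 CPM at 6 h against 86.8 and 91.2 CPM at 0 h and rose by 1.63 (SE 0.09), and CISH, a feedback inhibitor, fell by 2.38 (SE 0.12). Of 22 receptor genes 6 rose and 7 fell. IL6ST, the gp130 subunit shared by IL-6 family receptors, was at 941 and 829 CPM at 6 h against 149 and 144 CPM at 0 h and rose by 2.60 (SE 0.11). Its partner LIFR was at 28.5 and 25.2 CPM at 6 h against 5.51 and 5.24 CPM at 0 h and rose by 2.32 (SE 0.09), 1.97 more than in si-control cells (SE 0.13; edgeR adjusted p = 1.22e-08). RET, a receptor tyrosine kinase gene, was at 21.5 and 22.6 CPM at 6 h against 5.92 and 6.70 CPM at 0 h and rose by 1.81 (SE 0.12), 1.44 more than in si-control cells (SE 0.19). EGFR rose by 1.28 (SE 0.08).

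Among 18 growth factor and paracrine genes 6 rose and 7 fell, 4 without 6 h replicate 1. Over all genes tested 19.1% rose and 19.6% fell. EGF, a ligand of EGFR, was at 84.6 and 82.8 CPM at 6 h against 12.1 and 10.1 CPM at 0 h and rose by 2.92 (SE 0.12). That rise exceeded the one in si-control cells by 2.00 (SE 0.16; edgeR adjusted p = 1.82e-07). TGFA, another EGFR ligand, rose by 0.90 (SE 0.07), and the death ligand gene TNFSF10 fell by 1.30 (SE 0.13). Feedback inhibitors of MAP kinase signalling fell in 9 of 18 cases and rose in 3, with a median of -0.25, and 5 fell without 0 h replicate 2. SPRY1 was at 2.48 and 2.76 CPM at 6 h against 9.53 and 9.71 CPM at 0 h and fell by 1.88 (SE 0.11), and the phosphatase gene DUSP10 fell by 1.83 (SE 0.12). SPRY4, of the same family as SPRY1, went the other way, at 4.06 and 4.97 CPM at 6 h against 1.27 and 1.19 CPM at 0 h, a rise by 1.88 (SE 0.18) that lay 2.57 above the si-control response (SE 0.44). The responses of 11 of these 18 genes were lower than in si-control cells and of 2 higher, against 15.7% and 13.0% of all genes tested.

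Immediate-early genes split, with 10 of 28 up and 11 down, 7 without 0 h replicate 2 and 7 without 6 h replicate 1. For this and the next 2 lists, the shares over all genes tested were 19.1% higher and 19.6% lower. CCN2, a matricellular growth factor target of YAP and TGF-beta, was at 0.446 and 0.499 CPM at 6 h against 12.4 and 12.3 CPM at 0 h, a fall by 4.70 (SE 0.17), from a level that si-control cells, at 0.204 and 0.222 CPM at 0 h, did not have. KLF4, a differentiation factor, was at 97.1 and 102 CPM at 6 h against 30.6 and 32.3 CPM at 0 h and rose by 1.66 (SE 0.07). FOSL2 and ZFP36 rose by 1.09 and 1.28. Of 14 KLF family genes 8 rose and 2 fell, 1 without 0 h replicate 2, with KLF6 up by 0.97 and KLF7 down by 1.57 (SE 0.09). Of 20 TGF-beta and BMP response genes 11 fell and 1 rose, with a median of -0.40. ID3, an inhibitor of bHLH factors and a BMP target, was at 7.97 and 9.91 CPM at 6 h against 30.7 and 31.9 CPM at 0 h and fell by 1.81 (SE 0.11), 2.06 below the si-control response (SE 0.15; edgeR adjusted p = 5.1e-08). ID2 fell by 1.60 (SE 0.12). The ligand gene TGFB3 was at 47.4 and 47.2 CPM at 6 h against 155 and 166 CPM at 0 h and fell by 1.76 (SE 0.08).

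Transport and lipid genes rose more often than they fell, where 19.1% of all genes tested rose and 19.6% fell. Of 20 sodium and potassium transport genes 11 rose and 4 fell, with a median of 0.38. SCNN1G, a subunit of the epithelial sodium channel, was at 8.11 and 9.47 CPM at 6 h against 0.794 and 0.807 CPM at 0 h and rose by 3.45 (SE 0.14). NEDD4, a ubiquitin ligase, was at 68.1 and 65.6 CPM at 6 h against 20.8 and 20.3 CPM at 0 h and rose by 1.70 (SE 0.07), 1.44 more than in si-control cells (SE 0.09). In si-control cells NEDD4 stood at 70.3 and 70.0 CPM at 6 h and at 57.4 and 59.8 CPM at 0 h. Fatty acid and lipid droplet genes rose in 12 of 22 cases and fell in 5, 2 without any 1 of 0 h replicate 1, 0 h replicate 2 and 6 h replicate 1. ACSL1, which activates long-chain fatty acids, was at 514 and 490 CPM at 6 h against 178 and 172 CPM at 0 h and rose by 1.52 (SE 0.07). The lipid droplet gene PLIN2 rose by 1.17, the elongase gene ELOVL5 by 1.07 and the phosphatase gene LPIN1 by 0.94. Cholesterol synthesis genes rose in 7 of 22 cases and fell in 2, with the squalene epoxidase gene SQLE up by 0.60. The other 13 were not called, and the list median was 0.07.

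Glucose use and stress genes were divided, beside 19.1% higher and 19.6% lower over all genes tested. Of 25 hypoxia and glycolysis genes 8 rose and 7 fell, 4 without 0 h replicate 2 and 4 without 6 h replicate 1. NDRG1, a hypoxia- and hormone-induced gene, rose by 2.22 (SE 0.09), the hexokinase gene HK2 by 1.17, and EGLN3, a prolyl hydroxylase, fell by 1.25 (SE 0.07). PFKFB3, which makes the activator of phosphofructokinase, was at 343 and 333 CPM at 6 h against 180.3 and 180.7 CPM at 0 h and rose by 0.91 (SE 0.06), 1.92 less than in si-control cells (SE 0.09; edgeR adjusted p = 2.62e-10). The responses of 15 of the 25 genes were lower than in si-control cells and of 1 higher, against 15.7% and 13.0% of all genes tested, and 10 were lower without si-FOXA1 6 h replicate 1. Of 23 amino acid and unfolded-protein stress genes 5 rose, 3 without 0 h replicate 1, and 7 fell, 3 without 0 h replicate 2 and 4 without 6 h replicate 1. The mTORC1 inhibitor gene DDIT4 rose by 1.53 (SE 0.08) and SESN2 fell by 0.79 (SE 0.08). Of 19 clock genes 5 rose and 6 fell, 3 rising without 0 h replicate 1. The repressor gene NR1D1 fell by 1.76 (SE 0.13), and CRY1 rose by 0.78.

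Cell death, inflammation and interferon genes moved in both directions, against shares of 19.1% higher and 19.6% lower over all genes tested. BMF (ENSG00000104081.9, chromosome 15, 40380091 to 40401093), a pro-apoptotic BH3-only protein gene, was at 315 CPM in each 6 h library against 34.7 and 35.8 CPM at 0 h and rose 8.95-fold (log2 3.16, SE 0.07; edgeR adjusted p = 1.87e-14). In si-control cells it stood at 125 and 123 CPM at 6 h and 79.1 and 69.8 CPM at 0 h, and its response was 2.43 higher in si-FOXA1 cells (SE 0.10; edgeR adjusted p = 5.24e-11). Of the 15 BCL2 family genes 4 rose and 4 fell. BCL2L11, another BH3-only gene, rose by 0.60 and the survival gene MCL1 by 0.58, while BCL2 fell by 1.56 at levels of 0.374 and 0.415 CPM at 6 h and 1.20 and 1.14 CPM at 0 h. Of 15 NF-kB targets 4 rose and 7 fell, with BIRC3 up by 1.77 (SE 0.12) and the adhesion gene ICAM1 down by 1.54 (SE 0.15). Of 21 p53 targets 4 rose and 7 fell, with the death receptor gene FAS down by 1.03 (SE 0.08) and the antiproliferative gene BTG2 up by 0.64. Interferon-stimulated genes fell in 9 of 34 cases, against 19.6% of all genes tested, and rose in 1, which was lost without any 1 library, with a median of -0.44. With no filter on low counts 18 fell and in a fit of only the 4 si-FOXA1 libraries 14, but 3 to 7 fell when any 1 library was left out, 3 of them without 0 h replicate 1 or without 6 h replicate 2 and 5 without 6 h replicate 1. MX2 fell by 1.19 (SE 0.19). Of 25 WNT and NOTCH genes 8 rose and 7 fell, and of 17 claudin and junction genes 5 rose and 4 fell, 2 without 0 h replicate 1.

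**Figure D3:**
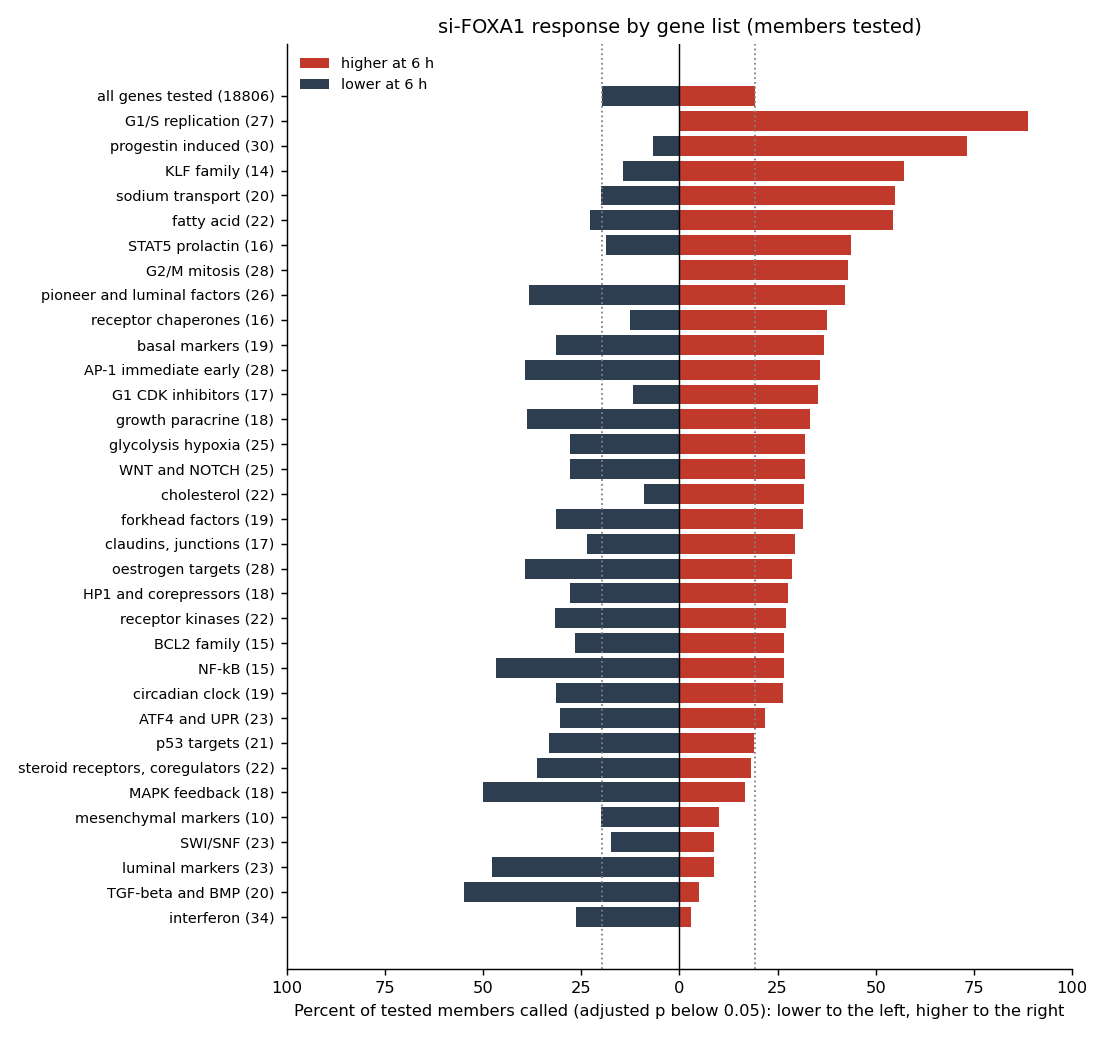
Percent of the tested members of each gene list (number in brackets) that rose (right) or fell (left) at 6 h in si-FOXA1 cells, with all genes tested on top and its shares drawn as dotted lines. G1/S replication genes, with 24 of 27 higher, and progestin-induced genes, with 22 of 30 higher, extend furthest to the right, and TGF-beta and BMP response genes, with 11 of 20 lower, furthest to the left.

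Luminal markers fell more often than they rose, where 19.1% of all genes tested rose and 19.6% fell. Of 23 luminal markers 11 were lower and 2 higher, with a median of -0.21 beside -0.04 over all genes. SPDEF, an epithelial ETS factor, was at 35.1 and 42.6 CPM at 6 h against 109 and 123 CPM at 0 h and fell by 1.58 (SE 0.09). CA12, a carbonic anhydrase and oestrogen target, was at 533 and 519 CPM at 6 h against 926 and 889.5 CPM at 0 h and fell by 0.79 (SE 0.06), 1.45 below the si-control response (SE 0.09; edgeR adjusted p = 8.55e-09). AGR3, a luminal secreted protein gene, was at 60.0 and 55.8 CPM at 6 h against 6.45 and 7.06 CPM at 0 h and rose by 3.10 (SE 0.11). Among 26 lineage and pioneer factor genes 11 rose and 10 fell. The epithelial factor gene GRHL2 was at 549 and 543 CPM at 6 h against 161 and 165 CPM at 0 h and rose by 1.75 (SE 0.08), and KLF5 rose by 1.55. Of 28 oestrogen targets 8 rose, 5 without 0 h replicate 1, and 11 fell. Of 19 basal markers tested 7 rose and 6 fell. Besides KRT16 and EGFR, the laminin receptor gene ITGA6 rose by 0.85, and TP63, the basal master factor, was at 1.39 and 1.01 CPM at 6 h against 6.24 and 6.51 CPM at 0 h and fell by 2.41 (SE 0.21).

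Markers of other cell types were few. The summed level of 12 leukocyte markers was 2.64 to 2.95 CPM at 6 h and 2.58 to 3.25 CPM at 0 h before TMM scaling, with CD3E, CD3D, MS4A1 and NKG7 at 0 in all 4 si-FOXA1 libraries. The 7 endothelial markers summed to 0.476 to 0.534 CPM at 6 h and 0.772 to 1.08 CPM at 0 h, with ERG at 0. The 16 mesenchymal markers summed to 46.4 to 51.0 CPM at 6 h and 58.5 to 61.2 CPM at 0 h, none at 0, and 23 luminal markers summed to 15190 to 15210 CPM at 6 h and 16640 to 17110 CPM at 0 h. Of the 10 mesenchymal markers tested 1 rose and 2 fell, against 19.1% and 19.6% of all genes tested, and each alternative run brought the falls to 1. In these bulk samples fewer cells of a type and less RNA per cell cannot be told apart.

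Chromatin genes were called at shares not far from those of all genes tested, 19.1% higher and 19.6% lower. Of 23 SWI/SNF subunit genes 2 rose and 4 fell, 1 and 2 without either 0 h library and 0 and 1 without 6 h replicate 1. SMARCA4, which encodes BRG1, did not pass at 146 and 154 CPM at 6 h and 183 and 187 CPM at 0 h (log2 -0.30, SE 0.18; edgeR adjusted p = 0.207). Of 18 HP1 and co-repressor genes 5 rose and 5 fell, with the histone methyltransferase gene SUV39H1 up by 0.53 and EHMT2 down by 0.52. CBX3, which encodes HP1 gamma, did not pass at 381 and 329.5 CPM at 6 h and 327 and 326 CPM at 0 h (edgeR adjusted p = 0.292). H1-2, a linker histone gene, did not pass at 25.2 and 23.7 CPM at 6 h and 26.8 and 28.4 CPM at 0 h (log2 -0.18, SE 0.11; edgeR adjusted p = 0.222). Most histone messages lack a poly(A) tail and the library kit selects messenger RNA, so histone levels hold only the part captured. SMARCA4 and H1-2 were not the siRNA target, and their si-control levels of 61.7 to 76.6 CPM and 75.4 to 88.6 CPM over 4 libraries lay away from those in si-FOXA1 cells. What part the siRNA and the batch have in that gap was not tested.

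The difference between the responses was tested for every gene. It passed for 5401 genes, 2451 with a higher and 2950 with a lower response in si-FOXA1 cells, and 1619 were higher without si-FOXA1 0 h replicate 2. Of the 7295 genes called in si-FOXA1 cells 3362 (46.1%) were among them. Of the genes that rose in si-FOXA1 cells 48.1%, and of those that rose in si-control cells 47.2%, rose in both (1730 genes). Another 1386 genes fell in both, 37.5% of the si-FOXA1 and 40.7% of the si-control falls. Over all 18806 genes tested, 3665 rose and 3405 fell in si-control cells, and 3600 rose and 3695 fell in si-FOXA1 cells. For 717 genes the calls were opposite and the difference passed: 333 rose in si-FOXA1 and fell in si-control cells, and 384 fell in si-FOXA1 and rose in si-control cells. At 0 h the libraries of the siRNAs did not overlap for the genes named next, except for XYLT1, at 18.0 and 21.3 CPM in si-FOXA1 and 22.7 and 20.6 CPM in si-control cells.

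SSTR2 (ENSG00000180616.4, chromosome 17, 71161151 to 71167185), a somatostatin receptor gene, stood at 60.0 and 61.8 CPM at 6 h and 31.8 and 29.5 CPM at 0 h in si-FOXA1 cells, against 1.62 and 1.57 CPM at 6 h and 9.46 and 8.46 CPM at 0 h in si-control cells. It rose by 0.99 (SE 0.08) where si-control cells changed by -2.48, a difference of 3.48 (SE 0.14; edgeR adjusted p = 4.42e-11). GASK1B, a secretory pathway gene, was at 31.4 and 28.1 CPM at 6 h and 5.95 and 5.34 CPM at 0 h in si-FOXA1 cells, against 110 and 86.7 CPM at 6 h and 142 and 191 CPM at 0 h in si-control cells. Its difference was 3.16 (SE 0.18). CLDN1, a tight junction gene, was at 85.9 and 79.7 CPM at 6 h and 46.5 and 47.5 CPM at 0 h in si-FOXA1 cells, against 65.3 and 66.5 CPM at 6 h and 277 and 336 CPM at 0 h in si-control cells, with a difference of 3.03 (SE 0.12). The 6 h levels of CLDN1 were thus closer between the siRNAs than those at 0 h.

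Further large positive differences were those of ATP13A4 (3.15), the xylosyltransferase gene XYLT1 (3.10), the actin-binding CALD1 (2.78) and the water channel gene AQP3 (2.69). CALD1 was at 69.4 and 65.4 CPM at 6 h and 8.21 and 7.95 CPM at 0 h in si-FOXA1 cells and rose by 3.06 (SE 0.13). IL1R1, an interleukin receptor gene, had a difference of 2.65 (SE 0.12), but its own response in si-FOXA1 cells, 0.22 (SE 0.08), passed at an edgeR adjusted p of 0.049 and lost that call when any 1 si-FOXA1 library was left out, at up to 0.187. Its si-control levels were 5.76 and 5.67 CPM at 6 h and 32.6 and 29.1 CPM at 0 h.

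Among the lower responses, GLUL (ENSG00000135821.12, chromosome 1, 182350839 to 182361341), glutamine synthetase, stood at 998.5 and 989 CPM at 6 h and 1302 and 1314 CPM at 0 h in si-FOXA1 cells, against 2671 and 2507 CPM at 6 h and 354 and 368 CPM at 0 h in si-control cells. It fell by 0.40 (SE 0.08) where si-control cells changed by 2.84, a difference of -3.24 (SE 0.11; edgeR adjusted p = 1.47e-11). CDC42EP3, a CDC42 effector gene, was at 104 and 95.7 CPM at 6 h and 137 and 131 CPM at 0 h in si-FOXA1 cells, against 113 and 107 CPM at 6 h and 14.4 and 15.4 CPM at 0 h in si-control cells, with a difference of -3.31 (SE 0.11). NEDD9, a scaffold of focal adhesions, was at 49.6 and 50.4 CPM at 6 h and 99.2 and 99.5 CPM at 0 h in si-FOXA1 cells, against 19.9 and 20.9 CPM at 6 h and 3.905 and 4.425 CPM at 0 h in si-control cells, with a difference of -3.28 (SE 0.13). RASD2 (-3.05) fell in si-FOXA1 cells too. The bHLH repressor gene HES2 (-3.41), SYBU (-3.20), CYRIA (-3.06) and SEC14L2 (-2.68) rose in si-FOXA1 cells by 1.91, 1.13, 1.36 and 1.32, less than in si-control cells.

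**Figure D4:**
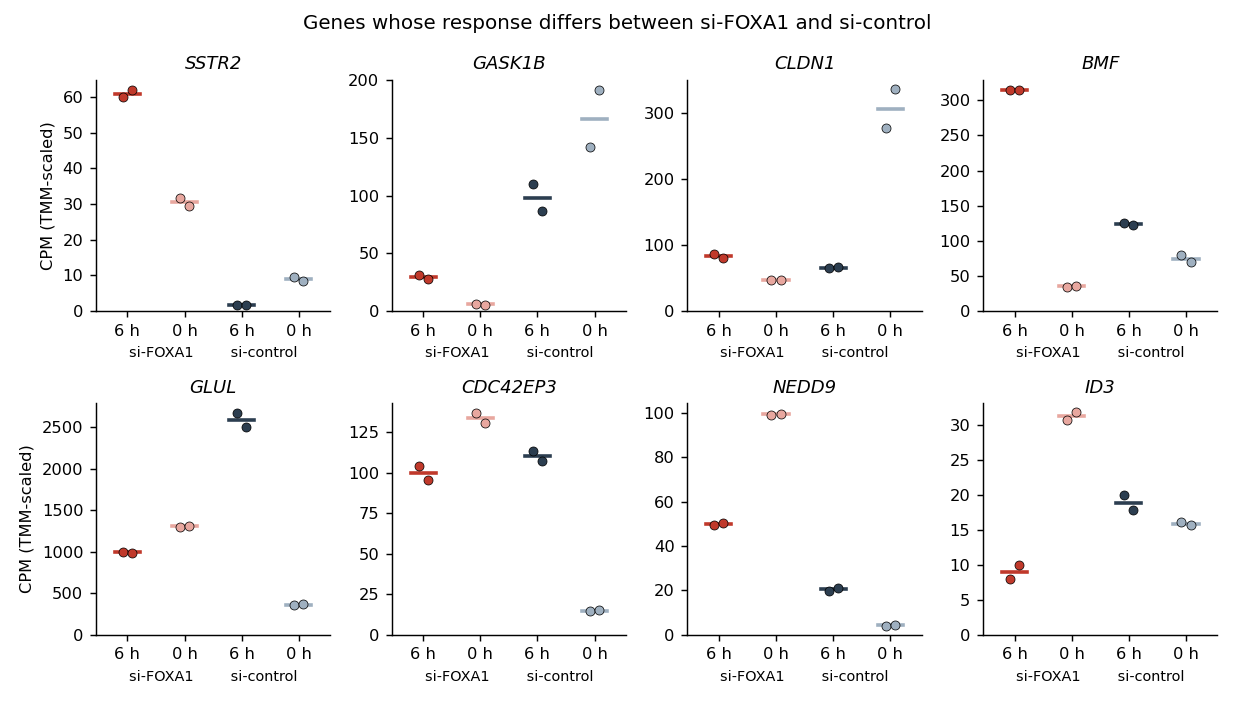
CPM (TMM-scaled, linear axis from 0) of 8 genes whose response differed between the siRNAs, in si-FOXA1 cells at 6 h and 0 h and si-control cells at 6 h and 0 h. Points are libraries and bars are group means (n = 2). SSTR2, GASK1B and CLDN1 rise in si-FOXA1 and fall in si-control cells, GLUL, CDC42EP3 and NEDD9 do the reverse, and BMF reaches 315 CPM at 6 h in si-FOXA1 cells.

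BRG1 peaks, recorded in cells without siRNA, were set beside the genes of the si-FOXA1 response. BRG1 drives the SWI/SNF remodelling complex with its ATPase activity. The authors' lists, 1 library each, hold 6180 peaks at 30 min of R5020 and 2288 at 0 min. Within 5 kb of the 5′ end a 30 min peak was present for 579 of 3600 genes that rose, 16.1% (95% Wilson interval 14.9% to 17.3%). The share was 10.3% (9.4% to 11.4%) for genes that fell and 8.46% (7.97% to 8.98%) for genes not called. At 0 min the shares were 2.64%, 2.33% and 1.52%. Among genes changed by at least 2-fold the 30 min shares lay closer, with overlapping intervals. They were 15.16% (13.16% to 17.41%) for rises and 12.95% (10.61% to 15.72%) for falls. At 0 min these genes had shares of 1.83% for rises and 3.16% for falls. Intervals cover counting error only, neighbouring genes can share a peak, and no test was made. Genes not called were often at low levels: with the mean log-CPM at 3 or above, an added comparison chosen after seeing the data, the 30 min shares were 20.73%, 11.02% and 11.17%. At that level the genes that fell and those not called had like shares.

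**Figure D5:**
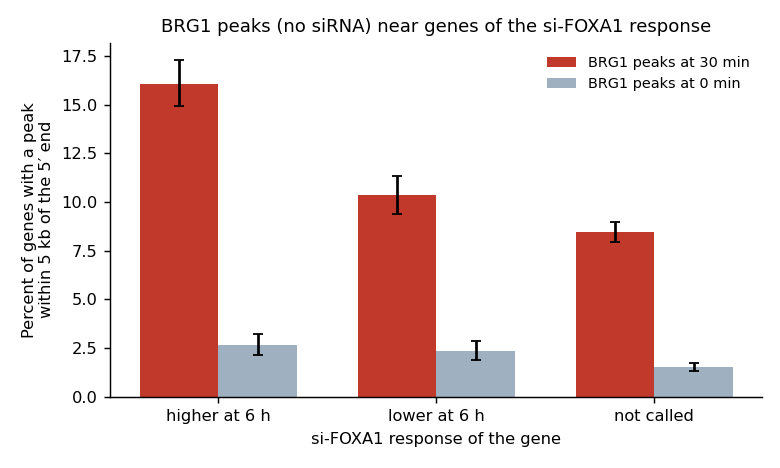
Percent of genes with a BRG1 peak within 5 kb of the 5′ end, for genes higher, lower or not called at 6 h in si-FOXA1 cells, with peaks at 30 min and at 0 min in cells without siRNA. Bars start at 0 and error bars are 95% Wilson intervals; the share at 30 min is 16.1% for genes that rose and 8.46% for genes not called.

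Of the 15 largest rises 6 had a 30 min peak within 5 kb and 0 had one at 0 min, and of the 15 largest falls 4 and 0. Of all genes tested whose mean log-CPM reached 3, 13.39% had such a peak at 30 min and 2.49% at 0 min. A peak covered the 5′ end of KCNH1 (chr1:211306225-211309052) and ABTB3 (chr12:107711325-107713773), and PLCE1 held a pair, one of them over its start (chr10:95753652-95755895). FKBP5 had a peak over its 5′ end (chr6:35693131-35696411) and a further one 2178 bases away. PGR, which fell, had a peak 298 bases from its 5′ end (chr11:100997483-101000957), and the remaining FOXA1 gene one at 4886 bases. Among the falls, peaks covered the 5′ ends of RAB20 (chr13:111212967-111214925) and SPTLC2 (chr14:78082067-78083853). Of the 8 genes with the largest higher differences 2 had a 30 min peak within 5 kb, and of the 8 with the largest lower differences 1. At 0 min 1 and 0 of them had one. SSTR2, of the higher set, had its 30 min peak at 423 bases (chr17:71161574-71163244). GLUL, of the lower set, had one over its 5′ end (chr1:182358588-182362042). Peak positions are 1-based hg19 coordinates, and no peak within 5 kb of the 5′ end of FKBP5, PGR, KCNH1, SSTR2 or GLUL was listed at 0 min; the promoters above are on another build, and their starts were not matched to these ends.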

How the data were processed

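RNA-seq counts of the 16 siRNA libraries were deposited by the authors as raw fragments per gene. Per the file headers they were counted with featureCounts 1.4.6-p2 as reverse-stranded fragments on GENCODE gene models of hg19. The submitters' processing notes list STAR and Trimmomatic. BRG1 peak lists hold 1 score per peak, deposited by the authors, with Bowtie 1.0.0 and HOMER in those notes; no peak calling setting was at hand. The 2 transcript tables of cells without siRNA were not used here. All 37 mitochondrial genes are listed at 0. Symbols were matched for 39538 of 57820 genes.

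The counts went into edgeR 4.0.16 under R 4.3.3: filterByExpr over the 8 siRNA groups (18806 genes), TMM scaling, 1 quasi-likelihood fit of 16 libraries with a mean per group (8 residual degrees of freedom), two-sided tests and Benjamini-Hochberg adjustment over all genes tested. The difference is the interaction contrast with si-control. Each SE was worked back from the test, as the size of the log2 change over the square root of its F statistic. It is approximate, above all at low counts. Alternatives changed the scaling, the filter, the threshold, the libraries kept, the replicate block and the tool (DESeq2 1.42.0). Wilson and exact intervals came from scipy 1.17.1.

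Genes were named by rule: a fixed list of 15, the 15 largest called rises and falls whose mean log-CPM reached 3 and whose groups did not overlap, the 8 largest differences in each direction, and, from each list, the 4 members of lowest p at most. Members of the lists whose difference is given were picked for it after their values were seen. The members and lists were chosen with earlier results of these data known. Replicate numbers were not treated as pairs. A few genes are not reported here.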

Additional observations from a re-analysis of the deposited data

Results flagged for a closer look

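The genes below had a response to R5020 in si-FOXA1 cells that differed from that in si-control cells by the test of the difference itself, as log2 differences of si-FOXA1 from si-control (edgeR, adjusted p below 0.05).

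Among the receptors, partners and induced genes of the fixed list, FOXA1 (0.66), PGR (1.06), ESR1 (0.80) and TSC22D3 (0.53) had higher responses, and FKBP5 (-0.76), PER1 (-1.82), STAT5A (-1.58) and DUSP1 (-2.23) lower ones. The largest higher responses were those of SSTR2 (3.48), GASK1B (3.16), ATP13A4 (3.15), XYLT1 (3.10), CLDN1 (3.03), CALD1 (2.78), AQP3 (2.69) and IL1R1 (2.65). The largest lower responses were those of HES2 (-3.41), CDC42EP3 (-3.31), NEDD9 (-3.28), GLUL (-3.24), SYBU (-3.20), CYRIA (-3.06), RASD2 (-3.05) and SEC14L2 (-2.68). Of the list members, SPRY4 (2.57), BMF (2.43), EGF (2.00), LIFR (1.97), NEDD4 (1.44), RET (1.44) and BUB1B (0.99) had higher responses, and ID3 (-2.06), PFKFB3 (-1.92), CITED2 (-1.80), CA12 (-1.45) and GINS2 (-1.33) lower ones. The siRNA and the run in which its files were counted cannot be told apart in any of these differences.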

How the results depend on the processing

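Of 1941 recomputed single-gene responses 1907 kept their direction and call, 28 lost the call (IL1R1, CDH2, FN1, OAS2, PBRM1, BCL7C and SMARCB1) and 6 gained one. Of 643 differences 638 kept theirs and 5 gained a call. Of 942 list counts 78 moved by over 1.5 times. No value reversed. Asking for at least 2-fold left 1095 genes higher and 664 lower in the si-FOXA1 response, and an adjusted p below 0.01 left 2431 lower. With 1 library left out, 2579 to 3302 genes rose and 2441 to 3369 fell, and the difference was higher for 1619 to 2496 genes and lower for 1972 to 3182. The lowest count of falls, 2441, and of higher differences, 1619, came without si-FOXA1 0 h replicate 2. The cause was not tested. DESeq2 called 3408 genes higher and 3313 lower.

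The fit with a replicate block called 3651 genes higher and 3847 lower, and 2582 higher and 3067 lower differences. Deviations of libraries with the same number correlated at 0.311 in si-FOXA1, 0.323 in si-BRG1, 0.152 in si-CBX3 and -0.065 in si-control cells. The labels tie no number to a shared culture or day, and whether the numbers mark pairs is not settled.

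The share of genes with a 30 min BRG1 peak, for genes that rose, fell or were not called, was 13.28%, 8.17% and 6.78% within 1 kb, 32.39%, 23.3% and 22.09% within 50 kb, 10.28%, 6.09% and 5.01% with the higher-scoring peaks, and 20.73%, 11.02% and 11.17% where the mean log-CPM reached 3. With 2 libraries per group, small changes and low genes were hardest to call.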
